A study of Mus musculus with 25 samples.

Results

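Pancreatic islets of WT (wild-type) mice were profiled by RNA sequencing in 5 pools, and all 5 are described here gene by gene, out of 25 samples in the whole series. Per the labels these are WT replicates 1 to 5, called pool 1 to pool 5 below, each isolated from at least 3 mice. The members are the genes with a deposited value in all 5 pools. The WT table has 15518 lines, of which 275 lack a value in at least 1 pool and 27 more repeat an earlier Entrez identifier, which leaves 15216 genes. The labels name no treatment of these pools. No contrast is drawn among them, so what follows are levels, ranges and orders with no test and no p-value. The question was which transcripts were most abundant, which varied between pools together with the content of acinar transcripts, and which did not.

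The labels give the WT pools no allele, diet, age, strain or treatment beyond the group name. A second group was not used for any order below and is set beside the WT values where named: 2 flox/flox pools (HFD, a high-fat diet fed for 3 months), the genotype set beside beta-cell-specific knockouts made with Pdx1-cre elsewhere in the series. Values are FPKM, fragments per length of transcript and per size of the library, so that levels of different genes can be set side by side. Only FPKM were read, with no read counts, so the depth of a library is unknown and no counting interval was computed.

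Islets are small clusters of hormone-secreting cells: beta cells make insulin and amylin, alpha cells glucagon, delta cells somatostatin and PP cells pancreatic polypeptide. They lie inside the exocrine pancreas, whose acinar cells secrete digestive enzymes, and islets are freed from it by enzymatic digestion and picked or sedimented. Acinar cells carry very large amounts of enzyme messenger RNA, so a small number of adhering acinar cells is visible in an islet library. Enzyme transcripts free in the digest can also be taken along. In bulk samples fewer cells of a type and less RNA per cell cannot be told apart.

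The pools did not lie equally close to each other. Summed FPKM ran from 941913 to 1257867, and between 10402 and 11259 genes reached 1 FPKM. Among 2751 genes of at least 10 FPKM in every pool, the spread of log2 ratios between 2 pools (a robust SD) was 0.0926 to 0.168 within pools 1, 2 and 3, and 0.399 to 0.560 in the 7 pairs with pool 4 or pool 5. The labels name no batch, so whether these pools were prepared apart was not tested. Pool 4 also departed from all others by at least 8-fold in 18 single genes and pool 5 in 1, against 0 in pools 1, 2 and 3. Counts of genes in an order are therefore given with and without pool 4.

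Hormone and enzyme transcripts made up most of each library. The islet label was met in every pool by level, as insulin transcripts took 27.0 to 59.0% of summed FPKM. All 27 listed beta cell genes and all 14 genes of other hormone cells had a value in every pool. The choice of members requires such values, so these counts do not bear on the label. Acinar transcripts were present in every pool beside the hormones. The 20 genes of highest median FPKM comprised 15 digestive enzymes, the zymogen granule protein gene Sycn, and the 4 hormone genes Ins2, Ins1, Iapp and Gcg. The 20 most abundant genes of each pool took 77.9, 80.3, 80.7, 75.4 and 74.7% of its summed FPKM in pools 1 to 5, and 14 genes were in the top 20 of every pool.

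Ins2 (Entrez 16334, chromosome 7, 142678656 to 142679726, GRCm38.p6 as for all positions below), 1 of the mouse genes for insulin, led the table at 368037, 281835, 256161, 579577 and 277583 FPKM in pools 1 to 5. Its paralogue Ins1 (Entrez 16333, chromosome 19, 52264297 to 52265015) measured 104639, 76102, 71348, 79598 and 94736 FPKM. Pool 4 was the highest for Ins2 and the middle pool for Ins1, and the ratio of Ins2 to Ins1 was 3.52, 3.70, 3.59, 7.28 and 2.93. The 2 genes are near copies of each other, so the split of reads between them is uncertain. Together insulin transcripts took 37.6, 28.8, 27.0, 59.0 and 39.5% of summed FPKM, a median of 37.6% (SD 12.8, n = 5 pools). Iapp, which encodes amylin, was at 26477, 19706, 18335, 58759 and 24731 FPKM. Gcg, the glucagon gene, stood at 9704, 6693, 6244, 35363 and 11603 FPKM, with pool 4 more than 3-fold above each of the others.

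Among the enzymes, Ctrb1 (Entrez 66473, chromosome 8, 111686510 to 111691010), a chymotrypsinogen, measured 66438, 88579.9, 89007, 12087 and 31546 FPKM. Amy2a5, a pancreatic amylase, had a higher median of 88834 FPKM, but it was nearly missing from 1 library, as described below. Cela2a, an elastase, followed at 50765, 65899, 67069.5, 11960.1 and 33518 FPKM. Pools 2 and 3 were the highest for both Ctrb1 and Cela2a, and pool 4 was the lowest.

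**Figure D1:**
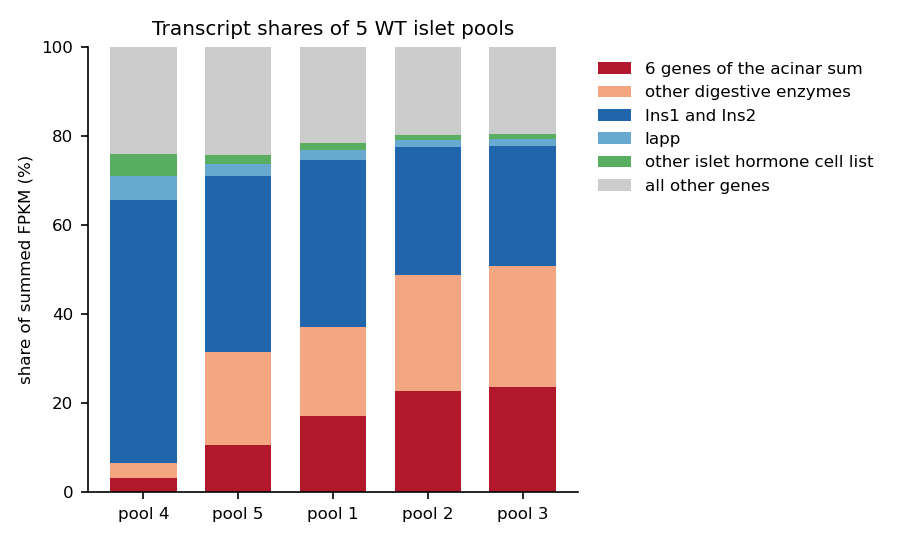
Share of summed FPKM in percent (vertical axis) for the 5 WT islet pools, ordered from the lowest to the highest acinar sum. Stacked colours stand for the 6 genes of the acinar sum, the other digestive enzymes, Ins1 with Ins2, Iapp, the list of other islet hormone cells and all other genes. The 6 acinar genes take 3.18% in pool 4 and 23.6% in pool 3, and insulin takes 59.0% and 27.0% in the same pools.

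Acinar content was read from the summed FPKM of 6 genes of secreted pancreatic enzymes and a cofactor. The sum was 215291, 282615, 287059, 35548 and 100044 FPKM in pools 1 to 5, an 8.08-fold span. The pools thus rank 4, 5, 1, 2, 3 from the lowest to the highest, and pools 2 and 3 differ by only 1.57%. As a share of summed FPKM the 6 genes took 17.1, 22.7, 23.6, 3.18 and 10.6%, a median of 17.1% (SD 8.61, n = 5 pools). The list of 24 measured digestive enzymes, which includes the 6, took 37.2, 48.7, 50.9, 6.64 and 31.5%. These 6 genes define the order, so their own agreement with it is no finding.

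Prss2 (Entrez 22072, chromosome 6, 41521776 to 41525079), a trypsinogen, measured 44979.8, 57896, 59312, 6553 and 16640.0 FPKM. Cela1 (Entrez 109901, chromosome 15, 100674422 to 100687920), an elastase, was at 26619, 35172, 34901, 4038 and 12155 FPKM. Cpa1 (Entrez 109697, chromosome 6, 30639218 to 30645361), a carboxypeptidase, was at 17343, 22272, 22722, 3084 and 12983 FPKM. All 3 were lowest in pool 4 and next lowest in pool 5. Pnlip (Entrez 69060, chromosome 19, 58670365 to 58681799), the pancreatic lipase, measured 29899, 37162, 38725, 4642 and 13010.1 FPKM. Clps (Entrez 109791, chromosome 17, 28558210 to 28560766), its cofactor colipase, measured 30012, 41533, 42392, 5144 and 13709 FPKM. Of the 6 genes Cpa1 differed from the others in pool 5, where it was 1.73 times as large relative to the rest of the sum as in pools 1 to 3.

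Since these genes moved together, their promoters are shown for the letters of the site of PTF1, the acinar transcription factor complex of PTF1A with RBPJL or RBPJ, which binds an E-box and a TC-box. Capitals mark the E-box letters CACCTG and the TC-box letters TTTCCC, each searched on both strands, so that the reverse complements CAGGTG and GGGAAA are capitals too. Each window holds the 250 bases before the annotated start, 5′ to 3′ on the strand of the gene, from RefSeq on GRCm38.p6. Windows are given for 5 genes of the acinar sum, and for Cel, an enzyme gene chosen after its matches were seen. Clps had no entry in the sequence table. No base of a match was shared by the 2 motifs in these windows.
Prss2, chr6:41521526-41521775, plus strand: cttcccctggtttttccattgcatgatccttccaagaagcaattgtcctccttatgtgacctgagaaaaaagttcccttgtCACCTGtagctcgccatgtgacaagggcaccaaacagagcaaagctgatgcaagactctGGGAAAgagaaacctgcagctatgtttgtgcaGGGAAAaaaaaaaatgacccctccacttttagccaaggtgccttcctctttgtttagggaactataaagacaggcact
Ctrb1, chr8:111691011-111691260, minus strand: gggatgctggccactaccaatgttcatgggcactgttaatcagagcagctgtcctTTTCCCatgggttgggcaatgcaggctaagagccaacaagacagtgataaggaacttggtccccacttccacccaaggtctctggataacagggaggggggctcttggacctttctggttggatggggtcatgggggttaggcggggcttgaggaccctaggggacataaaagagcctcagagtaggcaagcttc
Cela1, chr15:100687921-100688170, minus strand: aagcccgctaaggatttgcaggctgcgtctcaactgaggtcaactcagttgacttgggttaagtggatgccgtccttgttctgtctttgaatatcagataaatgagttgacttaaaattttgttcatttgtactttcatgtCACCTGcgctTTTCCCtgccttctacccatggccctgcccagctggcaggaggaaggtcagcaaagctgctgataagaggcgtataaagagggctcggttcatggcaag
Cpa1, chr6:30638968-30639217, plus strand: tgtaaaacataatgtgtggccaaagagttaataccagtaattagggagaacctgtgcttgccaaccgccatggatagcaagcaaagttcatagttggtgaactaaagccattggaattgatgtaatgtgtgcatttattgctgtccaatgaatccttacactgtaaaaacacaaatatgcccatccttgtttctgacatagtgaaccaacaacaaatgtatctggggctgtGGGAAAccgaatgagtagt
Pnlip, chr19:58670115-58670364, plus strand: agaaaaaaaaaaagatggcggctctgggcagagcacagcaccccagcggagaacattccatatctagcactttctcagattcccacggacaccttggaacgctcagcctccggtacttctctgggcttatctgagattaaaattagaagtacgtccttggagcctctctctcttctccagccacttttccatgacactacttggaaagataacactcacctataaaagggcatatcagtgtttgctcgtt
Cel, chr2:28563404-28563653, minus strand: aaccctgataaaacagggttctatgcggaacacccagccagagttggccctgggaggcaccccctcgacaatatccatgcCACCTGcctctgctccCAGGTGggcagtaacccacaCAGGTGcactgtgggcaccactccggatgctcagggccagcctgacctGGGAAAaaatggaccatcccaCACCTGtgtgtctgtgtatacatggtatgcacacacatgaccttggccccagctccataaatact

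In the Cela1 window the E-box and the TC-box stood in the same direction with 4 bases between them, 109 to 94 bases before the start. Prss2 held 1 E-box and 2 TC-boxes, Cel held 4 E-boxes and 1 TC-box, Ctrb1 and Cpa1 held 1 TC-box each, and Pnlip held neither. Over all genes tested, 19.1% of the 9181 with a window held CACCTG and 26.5% held TTTCCC. Of the digestive enzymes 12 of 20 held CACCTG, of the granule and protective genes 9 of 14, and of the REG family 4 of 6. TTTCCC was found in 7 of 20, 1 of 14 and 4 of 6 of them. Of 20 beta cell genes with a window, 6 held CACCTG and 2 held TTTCCC. A match is a run of letters and not a measured site.

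A gene was counted as following the acinar sum when its log2(FPKM + 1) put the 5 pools in the same order and spanned at least 2-fold, and as opposite when it put them in the reverse order. Of the 11362 genes that reached 1 FPKM in 2 or more pools, 82 (0.722%) followed the sum, 1154 (10.2%) ran opposite and 2312 (20.3%) varied at least 2-fold in neither order. The other 7814 stayed under a 2-fold range. Because pools 2 and 3 lie so close, the order was also read with these pools tied, a choice made after seeing the data: 183 genes (1.61%) then followed the sum and 1617 (14.2%) ran opposite.

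FPKM are relative to the size of the library, so each value depends on all other transcripts in it. The median gene shifted with the pool: the log2 factors of median scaling, which divides each pool by its median ratio to the geometric mean pool, ran from -0.38 to 0.33. After that scaling, with pools 2 and 3 tied, 483 genes (4.25%) followed the acinar sum and 156 (1.37%) ran opposite, a reversal of the split between the orders. The factors fell from pool to pool in the same order in which the acinar sum rose. All 183 genes that followed the sum on the deposited scale therefore also did so after scaling. Likewise all 156 that ran opposite after scaling also did so before. The factors fix this in advance, so it is no sign of stability. For genes that follow the sum, both scales ask no more than the deposited scale alone. For opposite genes they ask no more than the scaled values alone. Below, a gene is said to follow or oppose the sum on both scales when it is among these 183 or 156, with pools 2 and 3 tied. Without pool 4, 88 of 11056 genes followed the sum on both scales, 74 of them among the 183. For the opposite order the count without pool 4 was 90, with 26 among the 156.

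The other digestive enzymes varied together with the sum. Of the 24 measured enzymes 19 followed it on both scales, and 0 of 24 ran opposite. Among the 18 that are not part of the sum 13 followed it, beside 1.61% of all genes. For these 18 the median slope on the log2 acinar sum was 0.85, beside -0.17 for all genes tested. With the 6 genes of the sum, which are set against themselves, it was 0.92. A slope of 1 means proportion to the sum. Pools 2 and 3 were both above pool 1 in 18 of the 18, against 4.15% of all genes. Without pool 4, 9 of the 18 followed the sum on both scales, against 0.796% of all genes.

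Slopes differed among enzymes. Cela3b, an elastase, measured 21753, 28773, 30289.7, 3737 and 9593 FPKM (slope 1.00). Cel, the bile salt-dependent lipase, spanned more at 20035, 24704, 25104, 1949 and 8485 FPKM (slope 1.22). Rnase1, a secreted ribonuclease, spanned less at 10060.1, 13139, 13038, 2738 and 9845 FPKM (slope 0.69), and pool 5 was close to pool 1. Cela3a had the widest range of those in the order, with 142, 199, 204, 1.45 and 3.97 FPKM, so that it was nearly missing from pools 4 and 5. Without pool 4, Cel, Cela3a and Cela3b kept the order on both scales, and Rnase1 stayed under a 2-fold range.

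Taken relative to the acinar sum, enzymes kept nearly fixed proportions in pools 1, 2 and 3 and other proportions in pools 4 and 5. In pools 1 to 3 the ratio of a gene to the sum (its own value left out) stayed within 1.2-fold for 24 of 24 enzymes, a limit set after the values were seen, with a median span of 1.04-fold. The same limit held for 17 of 21 genes of the granule and protective list. Across all 5 pools the median span of the enzymes was 1.70-fold. Examples were chosen after their values were seen. Pla2g1b, the pancreatic phospholipase, amounted to 0.228, 0.244, 0.238, 1.13 and 1.53% of the sum in pools 1 to 5. Cela2a amounted to 23.6, 23.3, 23.4, 33.6 and 33.5% and Try4, a trypsinogen, to 6.25, 6.33, 6.13, 13.5 and 12.1%. For each of these 3 genes, pools 4 and 5 lay above pools 1 to 3. Over the 45 enzyme and granule genes, 32 had a ratio above their mean ratio of pools 1 to 3 in both pool 4 and pool 5, 9 were below it in both, and 4 split. The ratios in pools 4 and 5 were within 1.5-fold of each other for 33 of the 45. The trypsinogens and elastases are families of similar genes, so reads may be split between members differently from library to library, and whether this accounts for the proportions was not tested.

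**Figure D2:**
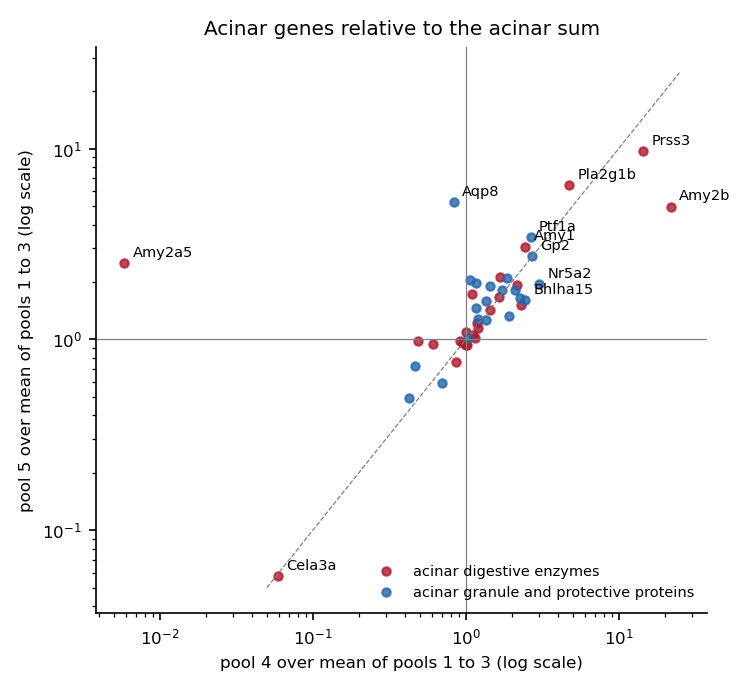
Ratio of each acinar gene to the acinar sum in pool 4 (horizontal axis) and in pool 5 (vertical axis), each divided by the mean ratio of pools 1 to 3, both on log scales without units. Each of the 45 points is a gene, red for digestive enzymes and blue for granule and protective proteins, and the dashed line marks equal values in both pools. Of the points 32 lie above 1 on both axes, with Amy2a5 far to the left at 0.00583 in pool 4.

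Amylase did not follow the sum. Amy2a5 (Entrez 109959, chromosome 3, 113249178 to 113258699) measured 77954, 96304, 102301, 73.2 and 88834 FPKM, so that pool 5 lay between pools 1 and 2 and pool 4 held 0.206% of the sum. The copies Amy2a2 and Amy2a4 were listed with equal values, in pools 1 to 5 26.1, 27.8, 28.6, 0 and 28.7 FPKM. A further copy, Amy2a3, had the same values in pools 1, 2, 3 and 5 but 31.0 FPKM in pool 4. Amy2b measured 41.6, 49.8, 58.9, 149 and 95.2 FPKM, highest in pool 4. All amylase genes together reached 36.3% of the acinar sum in pool 1, 34.1% in pool 2, 35.7% in pool 3, 0.730% in pool 4 and 89.0% in pool 5. Because the copies are nearly identical, a change in how reads are shared among them or set aside cannot be told apart here from a change in transcript level. Prss3, a trypsinogen named like Amy2b after its values were seen, also stood outside the order at 49.5, 74.2, 72.1, 127 and 242 FPKM, with its highest value in pool 5.

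Proteins of the zymogen granule and the acinar cell varied with the enzymes. On both scales 17 of 21 members of this list followed the sum, beside 1.61% of all genes, and 0 ran opposite. The median slope was 0.69. Without pool 4 the count was 7 of 21, beside 0.796% of all genes. Sycn, Spink1, Erp27 and Rbpjl were among those that kept the order. Sycn, a granule membrane protein, measured 17409.7, 22223, 23285, 1996 and 4748 FPKM. Spink1 (Entrez 20730), the trypsin inhibitor of pancreatic juice, measured 1428, 1804, 1991, 101 and 327 FPKM. Erp27, a chaperone of the endoplasmic reticulum, measured 153, 207, 208, 26.5 and 73.2 FPKM and kept its ratio to the sum within 1.05-fold over all 5 pools. Rbpjl, the acinar subunit of PTF1, followed at 31.2, 39.6, 41.1, 2.35 and 10.4 FPKM. Ptf1a, its DNA-binding partner, did not, with 5.21, 8.90, 7.06, 2.53 and 9.18 FPKM and its highest value in pool 5.

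REG genes encode secreted C-type lectins of the pancreas and gut. Of 6 measured members 4 followed the acinar sum on both scales, beside 1.61% of all genes. The same 4 kept the order without pool 4, beside 0.796% of all genes. Reg1 (Entrez 19692, chromosome 6, 78425983 to 78428668), a lectin of pancreatic juice, measured 4369.7, 7782, 7928, 1080.2 and 3443 FPKM. Reg3g, an antibacterial lectin, measured 12.7, 30.9, 35.7, 1.87 and 3.51 FPKM. Reg2 was at 192, 495, 532, 81.8 and 108 FPKM and Reg3a at 10.0, 37.2, 37.7, 2.10 and 5.69 FPKM. Reg3b (Entrez 18489, chromosome 6, 78370885 to 78373466), at 41.4, 108, 116, 49.0 and 60.2 FPKM, and Reg3d, at 73.9, 131, 124, 54.2 and 97.3 FPKM, were also highest in pools 2 and 3 but were in neither order, with pool 1 lowest for Reg3b and pool 4 for Reg3d. All 6 were above pool 1 in both pool 2 and pool 3, by a median of 1.37 on the log2 scale, beside 0.38 for the enzymes and -0.35 for all genes tested. The ratio of a REG gene to the acinar sum spanned a median of 2.09-fold within pools 1 to 3, against 1.04-fold for the enzymes. Reg4 is not among the genes analysed here.

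Outside the enzyme, granule and REG lists, 143 genes followed the acinar sum on both scales. The widest (at 5 FPKM or more in the highest pool) among the 55 of them that also separate pools 2 and 3 was Fgf21 (Entrez 56636, chromosome 7, 45613890 to 45615490), a hormone of the fibroblast growth factor family that is made in liver and exocrine pancreas, with 22.2, 28.1, 29.3, 2.75 and 16.5 FPKM. Ggt1, a gamma-glutamyltransferase, measured 25.3, 35.7, 36.1, 3.68 and 21.0 FPKM. Hsd17b13, a lipid droplet enzyme, measured 58.9, 74.3, 76.1, 11.1 and 27.7 FPKM. All 3 were lowest in pool 4 and differed little between pools 2 and 3. Slc39a5, a zinc transporter, was at 35.6, 47.0, 48.4, 6.89 and 29.6 FPKM and Slc6a9, a glycine transporter, at 14.6, 18.4, 19.2, 2.14 and 8.93 FPKM. Cth, which makes cysteine from cystathionine, was at 6.67, 8.38, 9.57, 0.56 and 3.74 FPKM. Fxyd1 measured 31.2, 38.8, 43.9, 6.01 and 17.9 FPKM, Chst2 10.2, 11.7, 12.7, 1.32 and 7.12 FPKM and Pet117, a gene for a cytochrome oxidase assembly factor listed at 0 in pool 4, 3.48, 4.52, 5.34, 0 and 0.52 FPKM.

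Some other genes in this order are given as single genes, chosen after their values were seen. Gamt, which completes creatine synthesis, measured 47.2, 58.5, 58.2, 6.40 and 29.6 FPKM, and Gatm, which begins it and stood in the granule list, 64.2, 75.2, 75.0, 20.5 and 49.9 FPKM. Gnmt, a glycine methyltransferase, was at 26.9, 36.7, 38.9, 7.42 and 25.0 FPKM, Gls2, a glutaminase, at 11.1, 13.5, 13.5, 2.18 and 7.30 FPKM and Phgdh, the first enzyme of serine synthesis, at 64.2, 73.3, 71.0, 25.8 and 41.1 FPKM. Without pool 4 none of Gamt, Gatm, Gnmt, Gls2 and Phgdh kept the order on both scales. Of the 143 genes 49 kept the order on both scales without pool 4. Of the 10 widest, 5 kept it, namely Cth, Slc6a9, Fxyd1, Hsd17b13 and Pet117. Fgf21, Ggt1, Slc39a5 and Chst2 were among those that no longer met it on both scales. Edem1, of the unfolded protein response list, at 29.9, 32.6, 32.8, 12.3 and 23.7 FPKM, and Cryab, a small heat shock protein, at 12.8, 17.8, 17.6, 5.82 and 11.7 FPKM, were the members of those lists in this order, and neither kept it on both scales without pool 4. For the promoter letters, 31 of the 111 with a window held CACCTG (27.9%, beside 19.1% of all genes tested) and 28 held TTTCCC (25.2%, beside 26.5%). The Fgf21 window held neither.

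**Figure D3:**
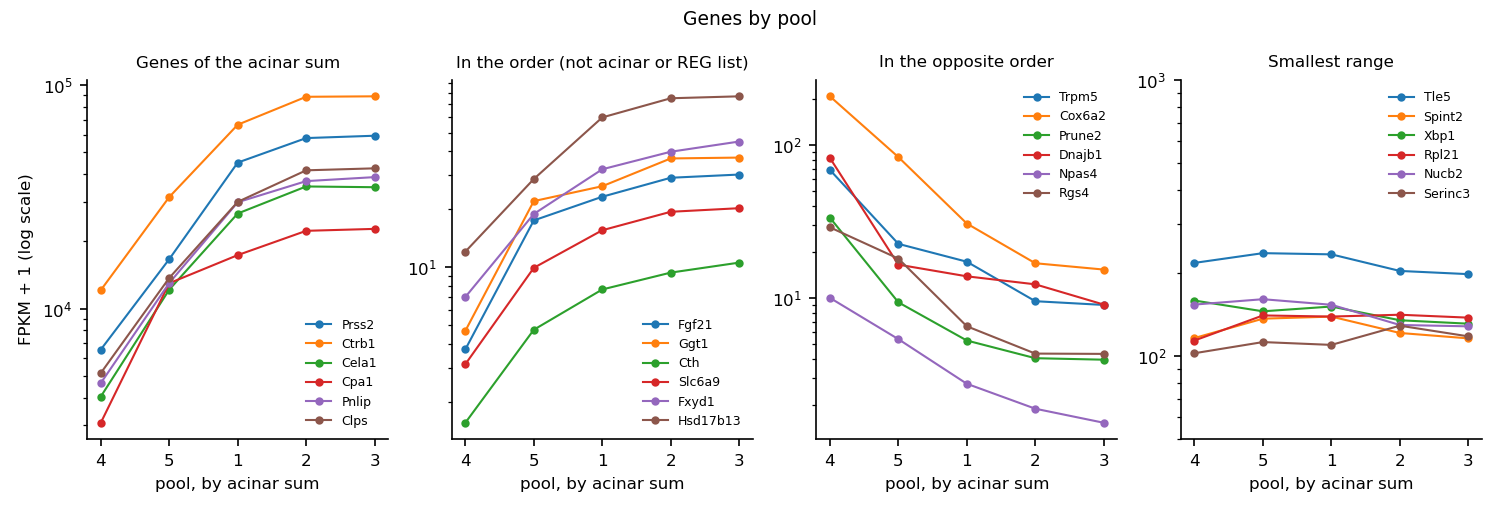
FPKM + 1 on a log scale (vertical axis) in the 5 WT pools, ordered from the lowest to the highest acinar sum (horizontal axis). Each line is a gene: the 6 genes of the acinar sum, 6 genes in its order outside the acinar and REG lists, 6 genes in the opposite order, and 6 of the genes of smallest range. Prss2 goes from 6553 FPKM in pool 4 to 59312 FPKM in pool 3, Trpm5 from 67.6 to 8.00 FPKM, and Tle5 stays between 197 and 235 FPKM.

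Genes of the other islet hormone cells were highest in pool 4. Of 14 measured, 8 ran opposite to the acinar sum on the deposited scale with pools 2 and 3 tied, beside 14.2% of all genes. On both scales 2 did so, beside 1.37% of all genes, and 0 did so without pool 4, beside 0.814%. Gcg (Entrez 14526, chromosome 2, 62474530 to 62483653), with the values above, ran opposite on both scales with a span of 2.50 on the log2 scale, and without pool 4 it stayed under a 2-fold range. Sst, the somatostatin gene of delta cells, measured 2947, 2009.8, 1882, 6036 and 3159.5 FPKM and ran opposite on the deposited scale only, while after median scaling it stayed under a 2-fold range. Ppy, the pancreatic polypeptide gene, was at 4004, 2342, 2745, 8380.1 and 2717 FPKM and Pyy, the peptide YY gene, at 2075, 1371, 1308, 2913 and 1712 FPKM. Neither of these 2 genes followed an order, and pool 4 was highest for each. Of the 14 genes of the list of other islet hormone cells, 14 were highest in pool 4 on both scales, a place that 45.9% of all genes held on the deposited scale and 30.5% after scaling. Relative to Ins2, Gcg was 2.64, 2.37 and 2.44% in pools 1 to 3, 6.10% in pool 4 and 4.18% in pool 5. The ratio of Gcg to Sst was 3.29, 3.33, 3.32, 5.86 and 3.67 in pools 1 to 5.

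Beta cell genes were split. Of 27 measured, 0 followed the acinar sum, and 8 ran opposite on the deposited scale with pools 2 and 3 tied, beside 14.2% of all genes. On both scales 4 ran opposite, beside 1.37% of all genes: Trpm5, Slc2a2, Ucn3 and Isl1. Trpm5 (Entrez 56843, chromosome 7, 143071529 to 143094642), a calcium-activated cation channel, measured 16.2, 8.52, 8.00, 67.6 and 21.6 FPKM. Slc2a2, the glucose transporter GLUT2, measured 108, 54.8, 50.1, 227 and 123 FPKM. Both were highest in pool 4 and second in pool 5, and without pool 4 neither ran opposite on both scales. Of the 4 genes Ucn3 kept the opposite order on both scales without pool 4, and Isl1 did not. Without pool 4, 5 of the 27 were opposite on both scales, beside 0.814% of all genes. Neurod1 and Rfx6, transcription factors of endocrine cells, measured 21.5, 14.4, 14.6, 66.9 and 78.8 FPKM and 10.3, 7.41, 7.47, 37.2 and 26.3 FPKM, high in pools 4 and 5 alike. Mnx1, a beta cell homeobox gene, had the smallest range among members of at least 5 FPKM, at 5.03, 4.18, 3.84, 3.72 and 5.51 FPKM. The median slope of the list was -0.37, and -0.15 after scaling. Within pools 1 to 3 all 27 were lower in both pool 2 and pool 3 than in pool 1, as were 87.7% of all genes.

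Genes for the processing and release of hormones mostly stayed under a 2-fold range after scaling, as did 84.5% of all genes. Among 12 genes of prohormone processing and granins, 0 ran opposite on both scales and 11 stayed under a 2-fold range after scaling. Pcsk1, the prohormone convertase, measured 86.1, 51.1, 50.5, 151 and 89.3 FPKM. Scg2, a granin, measured 2126, 1446, 1457, 3899.7 and 2691 FPKM. Of 17 genes of insulin granule exocytosis 16 stayed under a 2-fold range after scaling. Snap25, a SNARE protein, was the widest of the list at 34.1, 21.1, 18.4, 49.8 and 57.4 FPKM, with pools 4 and 5 the highest.

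Among the other genes of widest range in the opposite order, Cox6a2, a heart and muscle type subunit of cytochrome oxidase, measured 29.6, 15.8, 14.3, 206 and 82.2 FPKM. Prune2 measured 4.27, 3.04, 2.95, 32.4 and 8.36 FPKM and Rgs4, a regulator of G protein signalling, 5.53, 3.33, 3.31, 27.9 and 17.1 FPKM. These 3 ran opposite on both scales, and pools 4 and 5 were the highest for each. Of the 10 widest in this order on the deposited scale 6 ran opposite on both scales, and 3 of these 6 kept it without pool 4, namely Cox6a2, Rgs4 and Npas4. Dnajb1, a heat shock cochaperone, was at 12.8, 11.3, 8.05, 81.1 and 15.5 FPKM. Npas4, an activity-dependent transcription factor, was at 1.75, 0.89, 0.53, 9.01 and 4.38 FPKM. Zfp560 measured 0.65, 0.64, 0.61, 13.3 and 1.07 FPKM and Pkmyt1 1.83, 1.82, 1.65, 16.6 and 2.03 FPKM, both set apart by pool 4 alone.

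**Figure D4:**
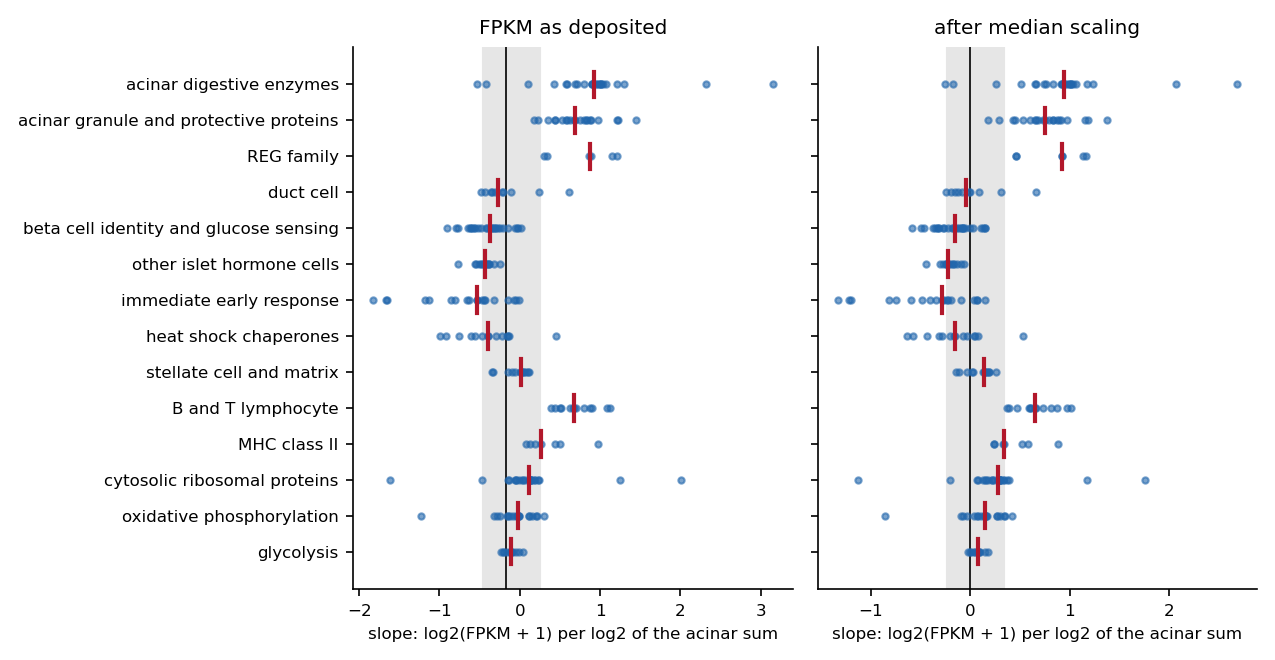
Slope of log2(FPKM + 1) on the log2 acinar sum (horizontal axis) for the members of 14 gene lists (rows), on the deposited scale (left) and after median scaling (right). Each point is a gene, the red bar the median of its list, the black line the median of all genes and the grey band their middle 90%. The median of the digestive enzymes is 0.92 on the left and 0.94 on the right, while that of all genes moves from -0.17 to -0.00.

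Immediate early genes are switched on within minutes of a stimulus. Of 19 measured, 16 were highest in pool 4, beside 45.9% of all genes, and 15 after scaling, beside 30.5%. With pools 2 and 3 tied, 6 ran opposite to the acinar sum on the deposited scale, beside 14.2% of all genes. After scaling 1 did, Npas4, beside 1.37% of all genes. Fos measured 4.63, 8.81, 1.28, 136 and 26.5 FPKM, Fosb 0.28, 1.34, 0.19, 84.5 and 1.71 FPKM and Egr1 2.90, 4.52, 1.45, 104 and 17.9 FPKM. Each was highest in pool 4, and pool 5 was second for each of the 3. Atf3, a stress-induced factor, was at 0.66, 1.66, 0.38, 28.8 and 0.29 FPKM, high in pool 4 alone. Myc had the smallest range at 3.96, 4.09, 3.24, 3.95 and 6.39 FPKM.

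Heat shock chaperones were highest in pool 4 in 12 of 14 members, beside 45.9% of all genes, and in 9 after scaling, beside 30.5%. Hspa1a, an inducible HSP70, measured 31.4, 33.2, 16.6, 218 and 40.9 FPKM and its near-identical copy Hspa1b 47.0, 55.0, 26.1, 216 and 46.9 FPKM. Hsp90ab1, a constitutive HSP90, ranged little at 329.8, 296, 276, 388 and 382 FPKM. Metallothioneins, small metal-binding proteins, were high in pools 4 and 5: Mt1 measured 281, 349.9, 325, 737 and 775 FPKM and Mt2 114, 109, 125, 488 and 412 FPKM.

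Lymphocyte genes followed neither order, and pool 2 led. All 13 measured members of the B and T lymphocyte list varied at least 2-fold in neither order on the deposited scale, and 3 of them followed the sum after median scaling with pools 2 and 3 tied. All 13 were highest in pool 2 before scaling, beside 4.95% of all genes, and after it, beside 16.5%. Their summed FPKM was 67.85, 119.9, 44.2, 12.7 and 6.67 in pools 1 to 5. Cd79b, a subunit of the B cell receptor, measured 5.42, 11.8, 4.44, 0 and 0.1 FPKM, and Cd37, a tetraspanin of B cells, 6.67, 12.1, 3.90, 0.07 and 0.23 FPKM. Jchain, the joining chain of polymeric antibodies, was at 14.5, 18.7, 6.41, 1.98 and 0.31 FPKM. The immunoglobulin and T cell receptor constant genes of the list are not among the genes analysed here. All 7 measured MHC class II genes were also highest in pool 2: H2-Ab1 measured 73.5, 87.8, 53.6, 25.1 and 38.6 FPKM and Cd74, the invariant chain, 171, 209.7, 129, 66.8 and 118 FPKM.

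Ccl21a, a chemokine of lymphoid tissue stroma, measured 42.3, 35.9, 30.4, 0 and 0 FPKM. Glycam1, a glycoprotein of lymph node vessels, measured 25.3, 14.2, 30.1, 0 and 0.34 FPKM. Both were present in pools 1 to 3 and at or near 0 in pools 4 and 5. Ccl5, a T cell chemokine, was at 14.8, 24.1, 39.2, 1.99 and 1.56 FPKM, highest in pool 3. In the macrophage list, Lyz2, a lysozyme, measured 59.7, 81.8, 39.5, 14.4 and 10.9 FPKM, while C1qa and C1qb, complement subunits of tissue macrophages, measured 37.9, 28.3, 24.1, 55.6 and 34.3 FPKM and 14.2, 12.6, 10.9, 15.2 and 12.3 FPKM. Lyz2 was lowest in pools 4 and 5, while C1qa and C1qb were highest in pool 4 on the deposited scale. Most of the list went elsewhere. After scaling 9 of 12 macrophage genes were highest in pool 2, beside 16.5% of all genes, and 2 in pool 4, beside 30.5%. On the deposited scale 5 were highest in pool 2, beside 4.95% of all genes, and 3 in pool 4, beside 45.9%.

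Markers of matrix, vessels and ducts followed no common order. Of 13 measured stellate cell and matrix genes 8 were highest in pool 5 after scaling, beside 24.2% of all genes. Dcn, the proteoglycan decorin, measured 4.52, 8.24, 3.45, 8.54 and 21.9 FPKM, and Col1a1, a fibrillar collagen chain, 1.03, 1.84, 0.71, 0.87 and 5.04 FPKM. Emcn, the endothelial sialomucin endomucin, was at 22.2, 13.5, 12.2, 57.4 and 40.5 FPKM and ran opposite to the acinar sum on both scales. Of 11 endothelial genes 10 were lowest in pool 4 after scaling, Emcn being the exception, beside 32.0% of all genes. In the duct list 1 of 10 followed the acinar sum on both scales: Muc1, an epithelial mucin, with 19.3, 23.7, 23.0, 5.05 and 18.5 FPKM, under a 2-fold range without pool 4. Spp1, the osteopontin gene, ranged little at 33.2, 33.1, 32.9, 49.4 and 52.2 FPKM.

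Single transcripts set pools 4 and 5 apart. Alb (Entrez 11657, chromosome 5, 90460870 to 90476602), the serum albumin gene of hepatocytes, measured 0.81, 0.73, 1.13, 0.38 and 79.8 FPKM. Zfp488, a zinc finger factor, measured 0.66, 0.47, 0.58, 24.4 and 36.4 FPKM, high in both pools 4 and 5. Entpd4 was at 0, 0, 1.06, 32.8 and 1.03 FPKM. All 4 measured globin genes, a sign of red blood cells, were lowest in pool 5 on both scales. That place was held by 961 of 11362 genes on the deposited scale and 22.5% of all genes after scaling. Hbb-bs was at 127, 101, 86.2, 62.7 and 33.6 FPKM and Hba-a1 at 108, 84.2, 76.3, 69.0 and 40.5 FPKM.

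Ribosomal protein genes showed pool 4 at odds with the others in single genes and pool 5 low in most. After scaling, 66 of 79 ribosomal protein genes found by symbol were lowest in pool 5, beside 22.5% of all genes. Rps6 (Entrez 20104, chromosome 4, 86854099 to 86857367) measured 15.2, 11.6, 11.9, 480.4 and 19.1 FPKM and Rps15a, named after its values were seen, 17.3, 19.6, 17.2, 334 and 13.9 FPKM. Rpl5 measured 369.8, 384, 370.3, 3.37 and 248 FPKM and Rpl10 1096, 1077, 1039, 65.0 and 827 FPKM. For Rps6 and Rps15a pool 4 was far above the other pools, and for Rpl5 and Rpl10 far below. Rpl37rt, a retrotransposed copy of Rpl37, was at 1.59, 0.73, 1.44, 119 and 2.41 FPKM. Chd9 at 3.28, 2.68, 2.26, 370.4 and 5.27 FPKM, Tmem8b at 2.49, 1.58, 1.22, 238 and 3.08 FPKM and Mrps34 at 31.3, 26.3, 24.2, 0.11 and 18.6 FPKM were set apart by pool 4 as well.

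Ribosomal protein genes have many near-identical copies in the genome, so their reads can be shared out in more than 1 way, and these values are uncertain. The flox/flox HFD libraries are in another table that was normalized separately, so their levels are only set beside the WT levels, with no test. They gave Rps6 at 369.6 and 445 FPKM, Rpl5 at 21.1 and 16.6 FPKM and Chd9 at 507 and 437 FPKM in replicates 1 and 2, near pool 4. Mrps34 at 29.3 and 27.2 FPKM and Tmem8b at 3.25 and 3.44 FPKM were near the other pools. Of all 19 genes in which pool 4 or pool 5 departed from the others by at least 8-fold, 17 were measured there. By the mean of the 2 replicates, 9 lay nearer to pool 4 and 8 nearer to pools 1 to 3. This count also holds Alb, set apart by pool 5. It holds Fosb and Atf3 too, whose replicates lay far apart, at 309 and 1.81 FPKM and at 45.2 and 0.56 FPKM. Why the libraries differ in these genes was not tested. Rpl5 is among the 183 genes in the order of the acinar sum, and without pool 4 it did not keep the order on both scales.

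Glycolytic enzymes ranged least among the lists of energy metabolism. Of 12 members 12 stayed under a 2-fold range on both scales, as did 68.8% of all genes on the deposited scale and 84.5% after scaling: Gapdh measured 353, 244, 227, 414 and 304 FPKM and Pfkl, a phosphofructokinase, 10.3, 8.22, 7.34, 7.43 and 8.70 FPKM. Of 15 circadian clock and output genes 13 stayed under it on each scale, Dbp, a clock output factor, being the widest at 24.5, 21.8, 24.1, 12.6 and 8.60 FPKM. Among 21 nuclear genes of oxidative phosphorylation 15 stayed under it on the deposited scale, near the share of all genes, and 14 after scaling, below that share. Of these 21 genes 17 were lowest in pool 5 after scaling, beside 22.5% of all genes. Mitochondrially encoded genes are not among the genes analysed here.

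Under the stricter limit of 1.2-fold between the lowest and the highest pool, 24 of 3595 genes of at least 10 FPKM in median were steady (0.668%), and after median scaling 346 of 3615 (9.57%). The 8 genes of smallest range at a median of at least 100 FPKM are described here, of which Tle5 and Spint2 met that limit. Tle5, a transcriptional corepressor, measured 232, 202, 197, 216 and 235 FPKM. Xbp1, the transcription factor of the unfolded protein response that both acinar and beta cells need, measured 150.1, 134, 129.9, 158 and 144 FPKM. Spint2, a protease inhibitor, was at 138, 120.2, 115, 115 and 136 FPKM and Nucb2, the nesfatin precursor, at 152, 129, 127, 153 and 159.6 FPKM. Serinc3 measured 109, 128, 117, 101 and 111 FPKM and Tmbim6, an inhibitor of cell death in the endoplasmic reticulum, 148, 114, 114, 120.0 and 130.0 FPKM. Eef1g, an elongation factor subunit, measured 206, 191, 176, 156 and 169 FPKM and Rpl21 138, 140.1, 137, 113 and 139 FPKM. After median scaling these 8 genes spanned 0.44 to 0.97 on the log2 scale, so their steadiness holds on the deposited scale.

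Genes of the Y chromosome were found in every pool, Ddx3y at 7.45, 5.36, 4.87, 11.4 and 7.73 FPKM and Eif2s3y at 14.7, 10.5, 10.2, 27.2 and 14.1 FPKM. Prolactin and growth hormone receptor genes were higher in pools 4 and 5, with Prlr at 12.0, 7.69, 7.63, 22.0 and 26.5 FPKM and Ghr at 39.8, 32.0, 28.7, 77.3 and 54.3 FPKM. Socs2, a feedback inhibitor of growth hormone signalling, was at 4.02, 3.00, 2.87, 12.8 and 8.58 FPKM. Interferon-induced genes were low: Ifit1 measured 1.27, 0.8, 1.46, 5.66 and 2.43 FPKM and Oasl2 1.79, 1.56, 1.42, 5.49 and 5.54 FPKM.

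The 2 flox/flox HFD libraries, which the WT order did not use, differ in acinar content as well. Their acinar sums were 17924 FPKM in replicate 1 and 52441 FPKM in replicate 2. The 2 libraries thus differ by construction in the genes of the sum, which are among the enzymes counted next. Replicate 2 was at least 2-fold above replicate 1 in 91 of 10656 genes (0.854%). Of the digestive enzymes 23 of 23 were, with a median log2 difference of 1.59, and of the granule and protective genes 14 of 17, with a median of 1.45. Cel, for example, measured 1127 and 5670.0 FPKM and Rbpjl 2.23 and 13.2 FPKM in replicates 1 and 2. Amy2a5, out of order in WT, was at 441 and 2049 FPKM.

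WT genes in the order of the acinar sum outside the enzyme, granule and REG lists included some that were higher as well: 9 of the 31 measured on HFD (29.0%) passed 2-fold, with a median log2 difference of 0.54 beside -0.06 for all genes. With pools 2 and 3 tied the count was 18 of 78 (23.1%), and 0 of 78 were 2-fold lower. Ggt1 measured 3.25 and 12.7 FPKM, Hsd17b13 7.26 and 21.1 FPKM and Fgf21 1.69 and 6.00 FPKM. In each of these 3 the difference had the same direction as the acinar sum. Fxyd1 differed less, at 10.8 and 12.8 FPKM. Of the REG family 1 of 6 passed 2-fold, Reg1 at 553 and 1497 FPKM, and Reg3b was level at 77.7 and 78.0 FPKM.

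WT genes in the opposite order on the deposited scale were nearly level on HFD, as were all genes. Their median difference was -0.05, beside -0.06 for all genes. Of these 1119 genes 14 were at least 2-fold lower, beside 0.788% of all genes, and 1 at least 2-fold higher, beside 0.854%. Trpm5 measured 12.0 and 16.9 FPKM and Gcg 15364 and 16428 FPKM. Immediate early genes differed most, with 17 of 18 at least 2-fold lower in replicate 2 (beside 0.788% of all genes) and a median of -2.56. Fos measured 708 and 47.0 FPKM and Fosb 309 and 1.81 FPKM. In WT the pools of lowest acinar sum, 4 and 5, had the highest Fos, and on HFD it was replicate 1, the library of lower sum. The 2 HFD libraries are replicates of the same group, so these are values of those libraries only.

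**Figure D5:**
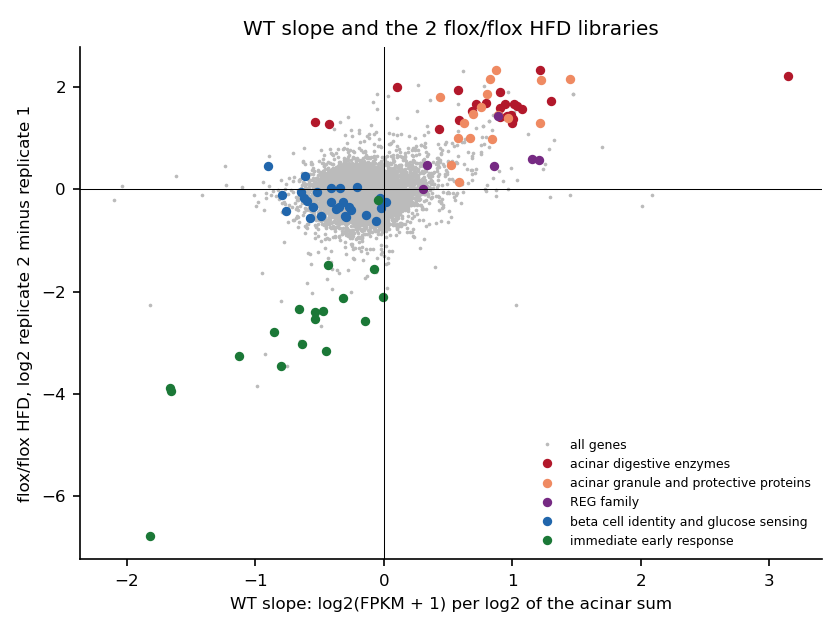
WT slope of log2(FPKM + 1) on the log2 acinar sum (horizontal axis) and the log2 difference of flox/flox HFD replicate 2 minus replicate 1 (vertical axis). Grey points are all 10656 genes measured in both tables, and colours mark 5 lists. All 23 digestive enzymes lie above 1 on the vertical axis, and 17 of 18 immediate early genes lie below -1.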

How the data were processed

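Messenger RNA of 5 WT mouse islet pools, each from at least 3 mice per the labels' protocols, was read in paired-end mode (BGISEQ-500). The authors deposited FPKM per gene. The genome build is GRCm38.p6 per the submitters' processing notes, and the aligner and counting program are not given in the sources used here. Depth is unknown, and the number of value columns with no sample was 0.

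Genes were taken by Entrez identifier, 15215 of 15216 with a RefSeq entry, and kept where 1 FPKM was reached in 2 or more pools (11362 genes). Levels were read as log2(FPKM + 1), so folds of low genes are understated. Orders, ranges and least-squares slopes are descriptions, computed with Python 3.11.15, numpy 2.4.6 and pandas 2.3.3. With 5 pools no correlation or test was made. The HFD libraries are in another table, normalized separately: differences between them were computed within it, and a few of their levels are set beside the WT levels with no test.

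The members and the 32 gene lists were chosen with earlier results of these data known. Always named were the 6 genes of the acinar sum, the islet hormones, the REG family and the 20 most abundant genes. Outside the acinar and REG lists, at 5 FPKM or more in the highest pool, the widest 10 in the order, 10 opposite and 15 in neither, and the 8 steadiest of at least 100 FPKM were named, with up to 4 widest and 1 steadiest member of each list. Alternatives were a pseudocount of 0.1, no filter, median scaling, an equal sum without acinar and REG genes, the sum of all enzymes, a 1.5-fold range and leaving out each pool. Some named genes are not reported here.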

Additional observations from a re-analysis of the deposited data

Results flagged for a closer look

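In groups of 5 pools, a value was singled out when the gap from the highest or the lowest pool to its neighbour took up more of the whole range than Dixon's 95% critical value allows. Chance does this in about 1 of 20 groups. Among all 11362 genes 407 met it (3.58%), and among 187 named genes, many of which were picked for a wide range, 25 (13.4%), 24 of them through pool 4. The figure in parentheses is the gap as a share of the range of log2(FPKM + 1).

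Pool 4 was far below the others for Cpa1 (0.72), Amy2a5 (0.962), Rnase1 (0.816), Fgf21 (0.738), Ggt1 (0.749), Slc39a5 (0.738), Rpl5 (0.902), Amy2a4 (0.973), Amy2a2 (0.973), Mrps34 (0.852), Amy1 (0.747), Muc1 (0.832) and Rpl10 (0.9). Rpl21 (0.887) was singled out through a low pool 4 as well, but the difference was small, as it is among the genes of smallest range. Pool 4 was far above the others for Chd9 (0.862), Tmem8b (0.87), Dnajb1 (0.728), Zfp560 (0.885), Pkmyt1 (0.929), Fosb (0.807), Rpl37rt (0.84), Rps6 (0.871), Entpd4 (0.795) and Atf3 (0.77). Pool 5 was far above the others for Alb (0.893), a hepatocyte transcript.

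Of 31 lists 3 stood out by their log2 share of summed FPKM: the digestive enzymes through a low pool 4 (0.765), the dedifferentiation and disallowed genes through a high pool 5 (0.777) and the cytosolic ribosomal proteins through a low pool 5 (0.824). Of 8 library values 1 stood out, the ratio of Ins2 to Ins1 through a high pool 4 (0.822). The amylase and ribosomal protein genes and the insulin pair have near-identical copies, and the part of read sharing in these values was not tested.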

How the results depend on the processing

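Scaling between pools decided the split of orders. Under median scaling 270 genes followed the acinar sum, 65 ran opposite, 1424 varied in neither order and 346 were steady, and at an equal sum without the acinar and REG lists the counts were 263 in the order, 27 opposite and 193 steady, with 20 of 31 lists at a median slope above 0, where the deposited scale gave 13. With pools 2 and 3 tied 183 followed the sum and 1617 ran opposite, and with median scaling as well 483, 156 and 1120 in the order, opposite and in neither. A pseudocount of 0.1 gave 3793 in neither order, and a 1.5-fold range 2021 opposite and 6358 in neither. Leaving out each pool in turn gave 41 to 302 genes in the order, 724 to 1606 opposite, 682 to 1805 in neither, 32 to 191 steady, 12 to 15 lists above 0, 19 to 20 of the most abundant genes, and median shares of 13.9 to 19.9% for the acinar sum and 33.2 to 38.6% for insulin. Without pool 4 the counts were 41 in the order, 724 opposite and 682 in neither, and without pool 3 or pool 2 302 and 182 were in the order. Tying pools gave 18 HFD genes past 2-fold of 78. Among the 189 named genes, 0 of those in an order changed the sign of their slope. For such genes this was fixed in advance under another pseudocount, no filter, the sum of all enzymes or a pool left out. For genes that follow the sum it was also fixed under median scaling, so this count is no sign of stability. In all, 1473 of 1882 gene slopes and 235 of 310 list medians moved by less than their standard error. Dropping the filter cannot change the slope of a named gene, so part of the first count was fixed in advance. The standard errors rest on 5 pools, so these counts are no measure of stability either. No paired analysis was possible because 1 group was described without a contrast. Depth is unknown, so low values carry an unknown counting error.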
